A study of Mus musculus with 28 samples.

Results

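The 10 keratin genes of the basal epidermis and the outer root sheath, Krt5, Krt14, Krt15, Krt17, Krt16, Krt6a, Krt6b, Krt7, Krt18 and Krt19, were followed through 14 cell populations sorted from the back skin of mice at postnatal day 5. They are the rows of the deposited expression table that carry these 10 symbols, out of 23015 rows. All 10 were present and all 10 passed the filter on low values (at least 1 FPKM in at least 2 libraries), Krt6b only through the epidermal libraries. FPKM, the unit of the table, scales fragments by transcript length and by library size, so levels of genes of different length can be set side by side.

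Keratins are the intermediate filament proteins of epithelial cells. A filament is built from pairs of 1 type I chain (here Krt14, Krt15, Krt16, Krt17, Krt18 and Krt19) and 1 type II chain (Krt5, Krt6a, Krt6b and Krt7). Krt5 and Krt14 form the filaments of basal keratinocytes, Krt15 is a basal and bulge keratin, Krt17 marks the outer root sheath and other appendage cells, Krt6a, Krt6b and Krt16 are known from the sheath, its companion layer and injured epidermis, and Krt7, Krt18 and Krt19 are chiefly keratins of simple epithelia, Krt19 also of the bulge. Because fibroblasts, melanocytes and endothelial cells make little or none of Krt5 and Krt14, these genes also serve as a gauge of keratinocyte RNA in sorts that should hold no keratinocytes.

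All mice had a mixed background of FVB/N, C57BI/6J and CD1, and each population had 2 libraries, 28 in all. Skin with Lef1-RFP and K14-H2BGFP, a green nuclear reporter under the keratin 14 promoter, gave 8 populations. Epi was the K14-H2BGFP+ fraction of an epidermal preparation, and the other 7 came from dermal preparations: ORS, the outer root sheath (K14-H2BGFPHi), Mx, matrix progenitors (K14-H2BGFPLo), TAC, matrix progenitors labelled as expressing Shh (K14-H2BGFPLo/Lef1-RFP+), Mc, melanocytes (Lef1-RFP+/CD117+), DF, dermal fibroblasts (Lef1-RFP+/CD117-/ITGA9-), DP, dermal papilla (Lef1-RFP+/ITGA9Hi), and Neg, a mixture of negative cells. Papilla cells (Lef1-RFP+/ITGA9Hi) were also divided by follicle type, in Lef1-RFP mice with Sox2-GFP into Sox2-GFP- cells of zig-zag follicles (ZZ-DP) and Sox2-GFP+ cells of guard with awl/auchene follicles (G/AA-DP), and in Lef1-RFP mice with Crabp1-GFP into G-DP (guard, Crabp1-GFP-) and AA/ZZ-DP (awl/auchene and zig-zag, Crabp1-GFP+). A further line with K14-RFP and Sox9-GFP, for which the labels name no Lef1-RFP and no preparation, gave HF-SC, precursors of the bulge stem cells (K14-RFPHi/ITGA6Hi/Sox9-GFP+), and HF-ORS, labelled as the remaining sheath (K14-RFPHi/ITGA6Hi/Sox9-GFP-). The gates of Epi, ORS, Mx, TAC, HF-SC and HF-ORS thus used a reporter of the keratin 14 promoter itself. A difference in Krt14 between sorts gated at unlike reporter levels may be in part what the gate selected, which was not tested. Mx and TAC shared the level K14-H2BGFPLo, and HF-SC and HF-ORS shared K14-RFPHi. The labels do not say that the 2 libraries of a population came from separate animals, so p-values measure only the spread between these libraries, which may be technical.

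Summed FPKM lay between 285981 and 515224 per library, and 10951 to 12497 genes reached 1 FPKM. Neither is a sequencing depth, and the depth is unknown. Malat1, a gene of all cells, was listed at 0 in 10 of 28 libraries, so that a 0 in the table can be a failed estimate. Such values are therefore given as listed at 0, with no fold change for a keratin where a library compared is at 0. Marker lists followed the labels in most sorts. The 6 melanocyte markers summed to 15266 and 11946 FPKM in Mc against at most 1298 elsewhere, and stood at 964.6 and 844.0 in G-DP and at 27.8 and 702 in ZZ-DP. The 6 papilla markers summed to at least 1098 in each of the 5 papilla populations against at most 519 elsewhere, and the 8 endothelial markers to 108 and 179.9 in Neg against at most 14.4 elsewhere. Among the genes behind the gates, Crabp1 read 1866 and 1149.9 FPKM in AA/ZZ-DP against 629.8 and 421 in G-DP, and Sox9 read 182 and 162 in HF-SC against 20.9 and 28.8 in HF-ORS. Sox2 did not separate the libraries labelled by its reporter, at 0 and 4.81 in G/AA-DP and 4.87 and 0.0891 in ZZ-DP. Shh, which the labels give for TAC, read 70.5 and 55.0 there and 51.5 and 44.2 in Mx.

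The genes lie in the 2 keratin clusters of the mouse genome (build GRCm38, positions of the RefSeq genes and strands of the GENCODE annotation). On chromosome 11, all on the minus strand, stand Krt15 (chr11:100131759-100135949), Krt19 (chr11:100140810-100145926), Krt14 (chr11:100203162-100207510), Krt16 (chr11:100246091-100248902) and Krt17 (chr11:100256215-100261029). On chromosome 15 stand Krt7 (chr15:101412403-101427806, plus strand), Krt6b (chr15:101676023-101680293), Krt6a (chr15:101689928-101694305) and Krt5 (chr15:101707069-101712905), the last 3 on the minus strand, and the type I gene Krt18 (chr15:102028216-102032026, plus strand). Sequence shared between the genes limits how well reads can be divided. Of all 50-base stretches of the Krt6a transcript (GENCODE annotation), 62.0% also occur in another gene, 43.6% in Krt6b. The shares were 50.1% for Krt6b, 37.6% for Krt16 (25.2% in the gene Gm11597 and 12.4% in Krt14), 14.4% for Krt14, 12.2% for Krt5, 3.99% for Krt17, 0.720% for Krt18, 0.666% for Krt15, 0.222% for Krt7 and 0 for Krt19. The values of Krt6a, Krt6b and Krt16 are therefore uncertain, and strand was not stated, so reads of the antisense gene Gm49428 over Krt6a cannot be separated from it. The coding sequences of Krt6a and Krt6b were identical at 1625 of 1662 aligned bases (97.8%), with an identical run of 280 bases, against 86.2% for Krt14 and Krt16 and 80.5% for Krt5 and Krt6a. The 60 coding bases below are where Krt6a and Krt6b differ most, at chr15:101692484-101692543 and chr15:101678303-101678362 (minus strand, 5′ to 3′). They are shown because only stretches that hold a difference tell the genes apart, and capitals mark the 10 bases that differ.
Krt6a: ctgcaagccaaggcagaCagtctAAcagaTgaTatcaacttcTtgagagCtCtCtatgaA
Krt6b: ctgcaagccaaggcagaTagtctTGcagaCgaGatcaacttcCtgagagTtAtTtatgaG

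The 250 bases upstream of the start are shown for Krt5, the most abundant of the 10 genes, and for Krt7 and Krt18, 2 of the least abundant. RefSeq promoter entries (GRCm38.p6) were found for 4 of the 10 genes, 3 of them at the gene's start. The stretches are chr15:101712906-101713155 (minus strand) for Krt5, chr15:101412153-101412402 (plus) for Krt7 and chr15:102027966-102028215 (plus) for Krt18, 5′ to 3′, with capitals at matches to any motif searched on both strands.
Krt5: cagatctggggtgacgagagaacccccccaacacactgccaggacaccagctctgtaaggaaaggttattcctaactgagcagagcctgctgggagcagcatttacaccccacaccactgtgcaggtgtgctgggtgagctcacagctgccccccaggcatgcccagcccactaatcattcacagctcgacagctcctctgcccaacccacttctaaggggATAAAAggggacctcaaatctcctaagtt
Krt7: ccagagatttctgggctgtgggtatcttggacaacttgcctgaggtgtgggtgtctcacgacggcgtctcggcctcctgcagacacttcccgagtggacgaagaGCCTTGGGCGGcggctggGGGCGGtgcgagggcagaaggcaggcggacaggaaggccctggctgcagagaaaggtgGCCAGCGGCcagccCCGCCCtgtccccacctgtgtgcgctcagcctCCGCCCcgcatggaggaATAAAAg
Krt18: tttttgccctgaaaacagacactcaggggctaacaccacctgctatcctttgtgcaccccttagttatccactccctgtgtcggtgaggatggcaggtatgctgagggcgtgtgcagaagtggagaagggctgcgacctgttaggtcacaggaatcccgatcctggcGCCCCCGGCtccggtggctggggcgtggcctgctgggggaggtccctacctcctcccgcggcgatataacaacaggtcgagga
The motif ATAAAA, which is in 17.0% of 32851 such promoters, began 29 bases before the start of Krt5 and 7 bases before that of Krt7. TATAAA (12.4% of promoters) and the AP-1 motif TGANTCA (6.75%) matched in none of the 3. The GC box GGGCGG (32.7%) matched 4 times in Krt7 and not in the other two, and the AP-2 motif GCCNNNGGC (13.7%) matched 2 times in Krt7, once across a GC box, and 1 time in Krt18. These are matches of letters in this window and no more.

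**Figure D1:**
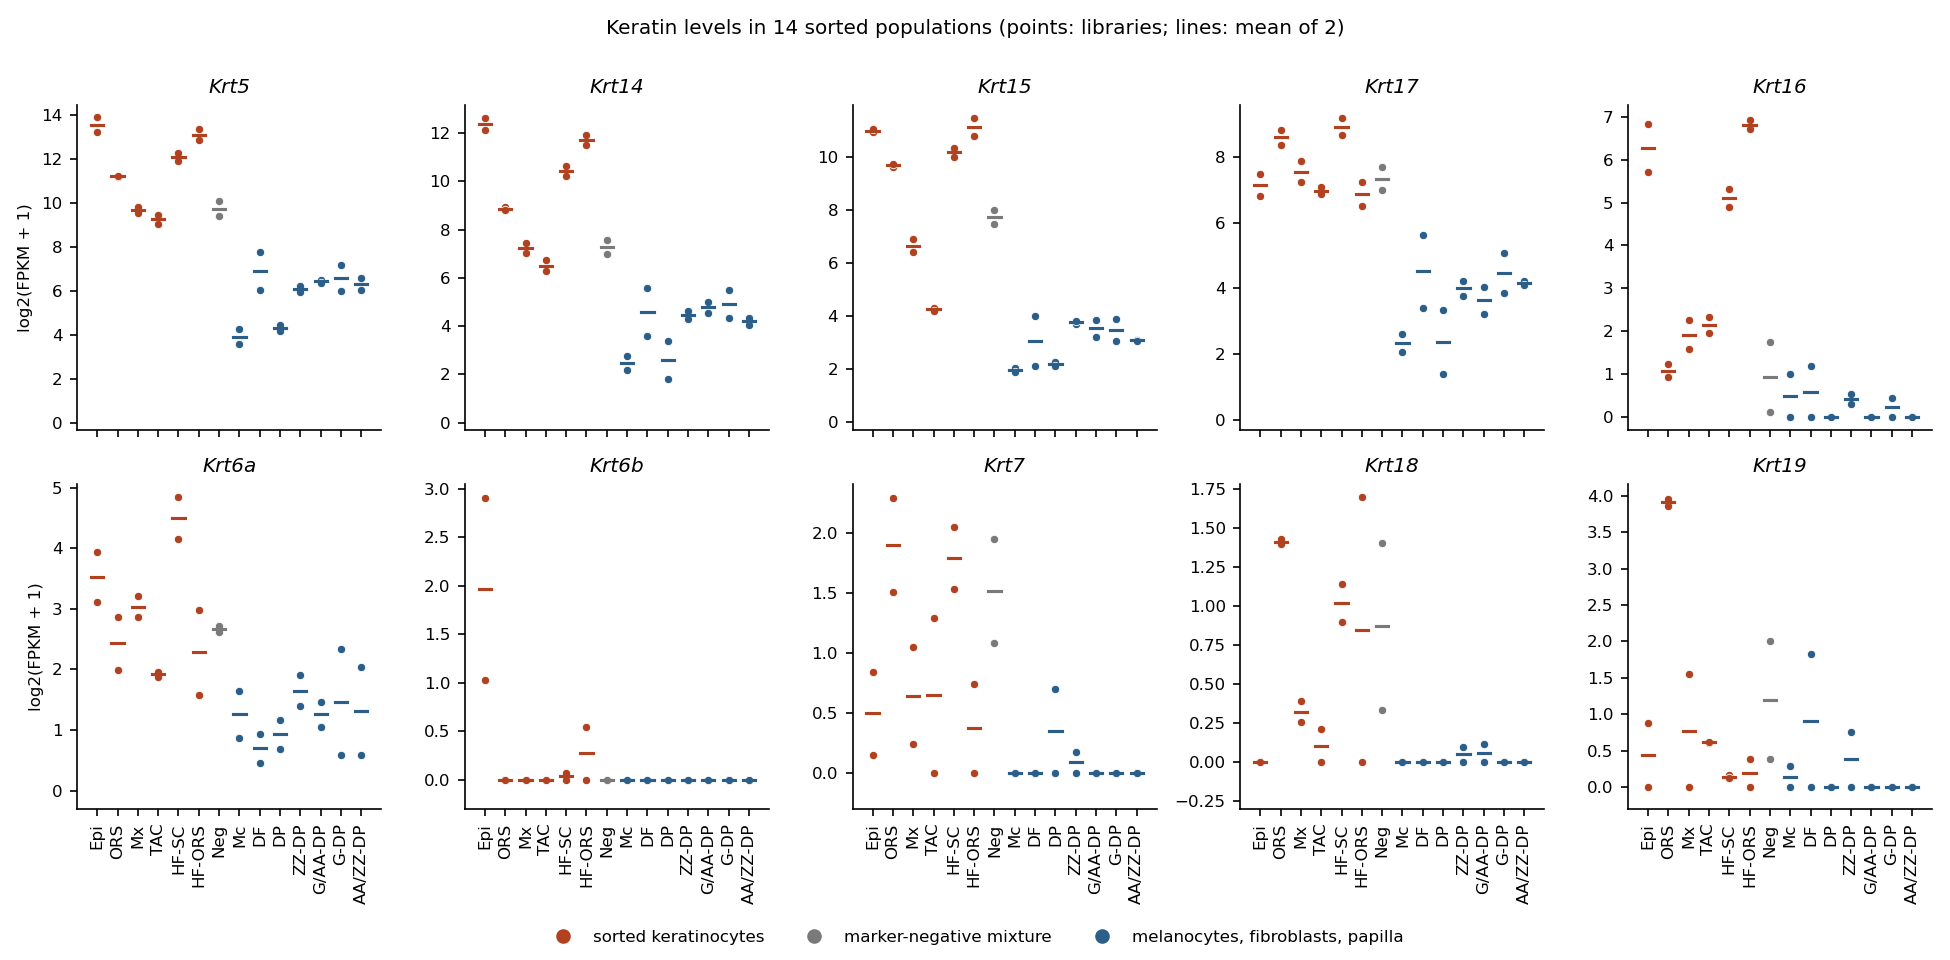
Levels of the 10 keratins as log2(FPKM + 1) in each of 14 populations. Points are libraries, bars the mean of 2, and the vertical scale differs between genes. Krt5, Krt14, Krt15 and Krt17 were above 0 in all 28 libraries. Of the 6 other keratins, Krt6a read 0.376 to 4.08 FPKM in the sorts of melanocytes, fibroblasts and papilla cells. The rest were near 0 in most of these sorts.

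Krt5, the type II chain of basal filaments, was the most abundant keratin of the set in every library. Its FPKM was 15798 and 9569 in the 2 Epi libraries, 10782 and 7446 in HF-ORS, 4964 and 3880 in HF-SC, and 2386 and 2419 in ORS. Neg followed with 1093 and 684.0, then Mx with 917 and 764 and TAC with 707 and 542. Epi overlapped HF-ORS, Neg overlapped Mx, and the other neighbours in this order did not overlap down to TAC. It was the most abundant row of the whole table in both Epi libraries, ranked 2 and 3 in HF-ORS, 3 and 2 in HF-SC and 9 and 8 in ORS, and still 37 and 43 in Neg. In DF Krt5 read 223 and 65.6 FPKM. In the 8 libraries of the papilla subtypes it lay between 61.7 and 145, with a range that overlapped that of DF. The lowest values were 17.5 and 21.3 in DP and 18.3 and 11.03 in Mc.

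Krt14, its type I partner, followed the same order of sorted keratinocytes with steeper steps. Epi held 6264 and 4486 FPKM, HF-ORS 3882 and 2941, HF-SC 1571 and 1186, ORS 484 and 442, Mx 174 and 128 and TAC 105 and 76.1, and no neighbouring pair of these overlapped. Neg, at 187 and 127, overlapped Mx. The ratio of Krt5 to Krt14 FPKM was 2.52 and 2.13 in Epi, 4.93 and 5.48 in ORS, 5.28 and 5.95 in Mx and 6.74 and 7.13 in TAC, so that Krt14 took a smaller part of the basal pair in ORS, Mx and TAC than in Epi. In the other line the ratio was 2.78 and 2.53 in HF-ORS and 3.16 and 3.27 in HF-SC. Over the 14 population means, log2 levels of Krt5 and Krt14 correlated at r = 0.988, a description of populations that share mouse lines and, for the 6 keratinocyte sorts, the reporter gate.

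Krt15 was highest in HF-ORS (2842 and 1771 FPKM) and Epi (1966 and 2115), which overlapped, and stood at 1295 and 1021 in HF-SC and 795 and 843 in ORS. It was far lower in the remaining populations, at 256 and 178 in Neg, 119 and 83.2 in Mx and 18.8 and 17.2 in TAC. The TAC values lay just above the 3.32 to 14.9 FPKM of DF and the papilla subtypes. As a ratio to Krt14, Krt15 reached 1.64 and 1.91 in ORS, 0.824 and 0.861 in HF-SC, 0.732 and 0.602 in HF-ORS, 0.685 and 0.648 in Mx, 0.314 and 0.471 in Epi and 0.179 and 0.226 in TAC. ORS was the only sorted keratinocyte population with more Krt15 than Krt14.

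Krt17, the appendage keratin, had another order. HF-SC (577 and 401 FPKM) and ORS (451 and 325) overlapped and were highest. Mx (231 and 148), Neg (206 and 125), Epi (176 and 111), TAC (133 and 115) and HF-ORS (149 and 89.1) all overlapped their neighbours. Because Krt14 spanned so wide a range, the ratio of Krt17 to Krt14 separated 2 sets of libraries. It was 0.0281 and 0.0248 in Epi and 0.0384 and 0.0303 in HF-ORS, 0.367 and 0.338 in HF-SC, and 0.735 to 1.52 in ORS, Mx and TAC.

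**Figure D2:**
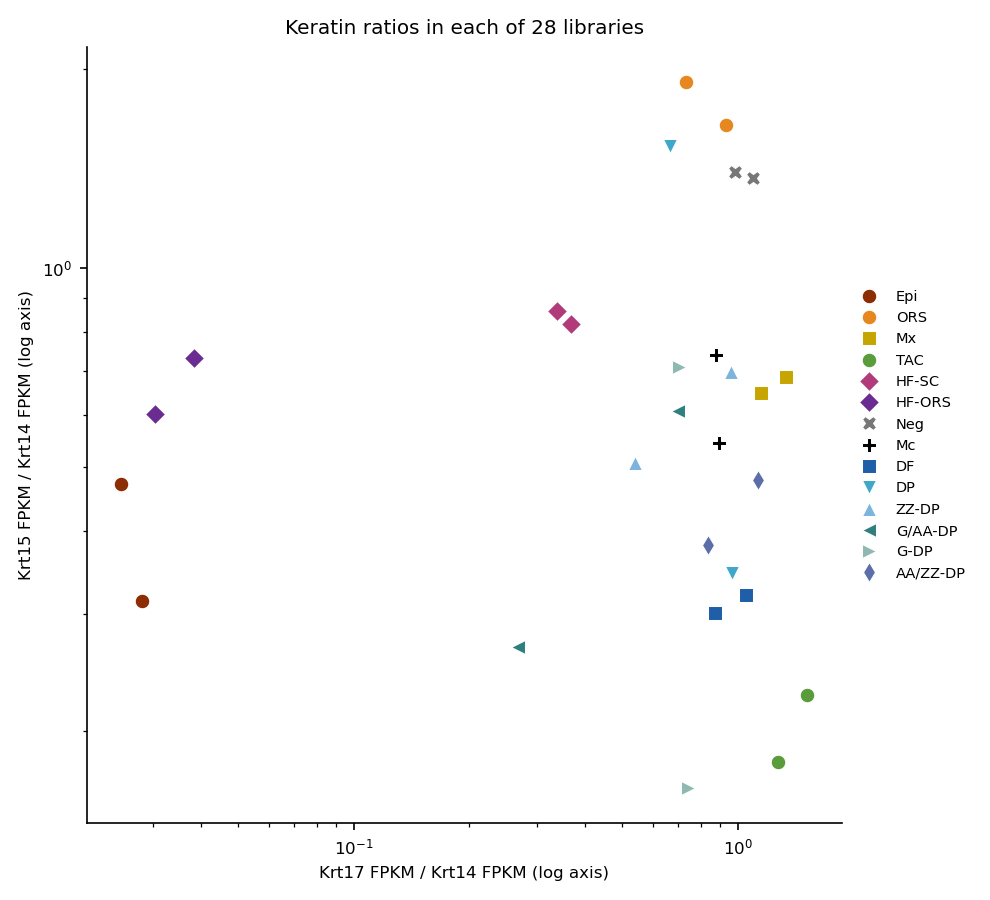
Ratio of Krt15 to Krt14 FPKM (vertical, log axis) against the ratio of Krt17 to Krt14 FPKM (horizontal, log axis) in each of 28 libraries, with symbols for the 14 populations. Epi and HF-ORS stand at the left with ratios of Krt17 to Krt14 of 0.0384 or less, ORS and Neg at the upper right, and TAC at the lower right.

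Krt16, a type I keratin of activated keratinocytes, had the same 3 populations at the top as Krt14, at far lower levels. It reached 121 and 104 FPKM in HF-ORS, 113 and 51.6 in Epi and 28.8 and 38.8 in HF-SC. It stood at 4.03 and 2.89 in TAC, 3.78 and 1.99 in Mx and 1.35 and 0.906 in ORS, and was listed at 0 in 9 libraries, all of them outside the sorted keratinocytes. Krt16 shares 12.4% of its 50-base stretches with Krt14, and a part of its reads may belong to that more abundant gene.

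Krt6a, a type II keratin of the companion layer and of injured skin, was the only one of the 6 minor keratins listed above 0 in all 28 libraries. HF-SC had 27.6 and 16.8 FPKM, Epi 14.3 and 7.67, Mx 6.28 and 8.24, Neg 5.56 and 5.15, ORS 2.98 and 6.31, HF-ORS 1.98 and 6.90 and TAC 2.89 and 2.68. In the sorts of melanocytes, fibroblasts and papilla cells Krt6a lay between 0.376 and 4.08, a range that overlapped those of ORS, HF-ORS and TAC. HF-SC thus stood above all other populations in both libraries. Its near copy Krt6b read 6.48 and 1.04 in Epi, 0 and 0.457 in HF-ORS and 0 and 0.0507 in HF-SC, and was listed at 0 in the remaining 24 libraries.

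The simple-epithelial keratins were rare. Krt19 stood out in ORS alone, with 13.6 and 14.6 FPKM, against at most 2.996 in any other library and 0 in 14. Krt7 was highest in ORS (1.85 and 3.89) and HF-SC (1.89 and 3.14), with 2.86 and 1.12 in Neg, and was listed at 0 in 14 libraries. Krt18 read 1.64 and 1.69 in ORS, 1.20 and 0.865 in HF-SC, 0 and 2.24 in HF-ORS and 1.65 and 0.259 in Neg, and 0 in 16 libraries including both of Epi. Krt8, the usual type II partner of Krt18 and no member of the set, read 3.71 and 4.55 in ORS and at most 2.31 elsewhere. Krt20, Atoh1, Isl1 and Sox2, which together with Piezo2 mark Merkel cells, the Krt18-rich touch receptors of the skin, were at or near 0 there, the 5 genes summing to 1.39 and 0.656 FPKM in ORS.

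**Figure D3:**
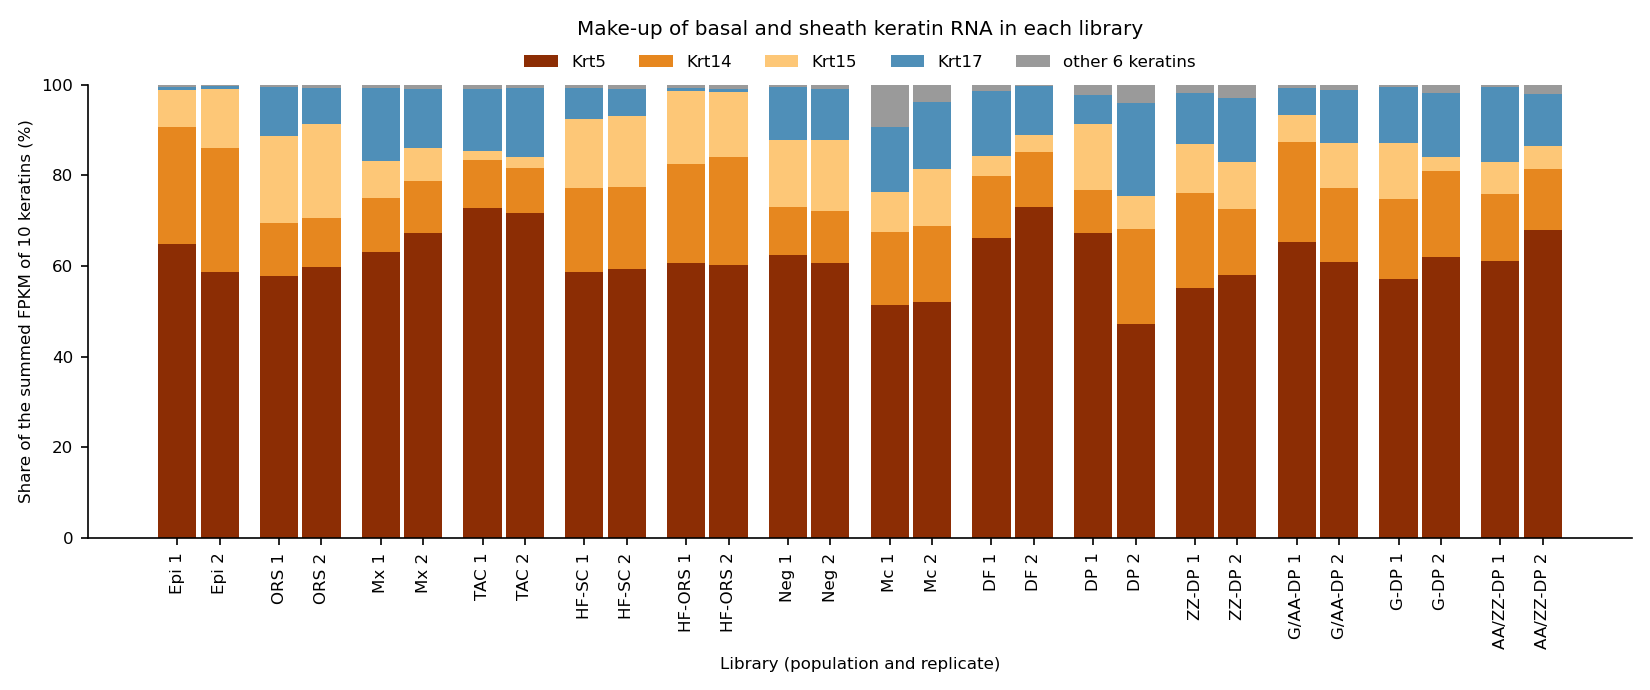
Share of each keratin in the summed FPKM of the 10 keratins, in percent, for each of 28 libraries. Krt5 makes up 47.1% to 72.9% of every bar, and the Krt17 share is under 1% in Epi and HF-ORS.

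The make-up of the keratin RNA varied less than its amount. Summed FPKM of the 10 genes ran from 21.2 in an Mc library to 24340.1 in an Epi library, or from 0.00520% to 5.24% of a library's summed FPKM. Krt5 held 47.1% to 72.9% of this sum in all libraries. Krt17 held 0.680% to 0.838% in Epi and HF-ORS and 5.94% to 20.4% in the other populations. The ratio of summed type II to summed type I members was above 1 in all 28 libraries, lowest at 1.05 in a DP library and highest at 2.75 in a DF library. Among the sorted keratinocytes it was highest in TAC, at 2.72 and 2.57, and it leaves out the keratins that are not among the 10.

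Differences between populations were tested with limma on log2(FPKM + 1) across all 15052 genes that passed the filter, with Benjamini-Hochberg adjustment. Calls needed both an adjusted p under 0.05 and a difference of 1 or more on the log2 scale, where 1 is a doubling. Fold changes on this scale understate the change of low genes. The comparisons share populations, so they are not independent of each other. In bulk sorts, fewer cells with a transcript and less of it per cell cannot be told apart.

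Between the follicle's outer sheath and the surface epidermis, basal keratins were lower and simple-epithelial keratins higher in ORS. Of the 10 genes, 5 fell and 3 rose, where 4.48% of all genes tested fell and 5.35% rose. Krt6b, counted among the 5, passed the filter only through the Epi libraries, so the filter allowed it no call but a lower one. The log2 change was -3.52 for Krt14 (SE 0.52, adjusted p = 7.73e-05), -2.36 for Krt5 (SE 0.46, adjusted p = 0.00132), -5.196 for Krt16 (SE 0.51, adjusted p = 4.43e-07) and -1.32 for Krt15 (SE 0.42, adjusted p = 0.0489), and Krt6b was called lower with both ORS libraries listed at 0. Krt19 was called higher (adjusted p = 0.000134), with 13.6 and 14.6 FPKM in ORS and 0.835 and a listed 0 in Epi. Krt7 rose by 1.40 (SE 0.43, adjusted p = 0.0391), and Krt18 was called higher with both Epi libraries listed at 0. Krt17 was higher in both ORS libraries than in either Epi library, by 1.45 on the log2 scale (95% interval 0.16 to 2.73), but did not pass (adjusted p = 0.177). The calls of Krt15 and Krt18 were lost when any 1 of the 4 libraries was left out (adjusted p of 0.167 to 0.212 and of 0.0900 to 0.104), and that of Krt7 without Epi replicate 2 (0.321) or ORS replicate 2 (0.380). The Krt15 and Krt7 calls were also lost with a pseudocount of 0.1 (0.0786 and 0.209), without the filter (0.118 and 0.0764), with quantile normalization (0.503 and 0.116) and with the same mouse line alone (0.0671 and 0.0773), and those of Krt7, Krt18 and Krt6b with a pseudocount of 5, where the log2 change was under 1. The count of 8 went to 5 without Epi replicate 1, 4 without Epi replicate 2 and 5 without ORS replicate 2.

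Genes that anchor or accompany these filaments shifted in the same comparison. Of 14 genes of the hemidesmosome and desmosome, 7 fell and 0 rose in ORS (median log2 change -1.35, against 0.01 over all genes tested), among them the hemidesmosomal collagen Col17a1 (log2 change -2.41, adjusted p = 0.000575) and the desmosomal Pkp1 (log2 change -2.89, adjusted p = 3.03e-05). Of 10 tested keratins outside the set, 5 fell and 2 rose. Those that rose were the companion layer keratin Krt75, listed at 0 in both Epi libraries and at 17.9 and 22.2 FPKM in ORS, and Krt8, also listed at 0 in Epi. Of 8 regulators of basal keratin genes, Klf5, Klf4 and Grhl3 fell and none rose. Trp63, the master regulator of stratified epithelia, was not called, with a log2 change of -0.25 (SE 0.54, adjusted p = 0.938) and 446 and 410 FPKM in Epi against 366 and 352 in ORS. Beside these calls, 4 of 6 suprabasal epidermal markers fell in ORS, and 6 of 8 inner root sheath, 3 of 7 fibroblast and 3 of 6 pericyte and smooth muscle markers rose. The suprabasal markers summed to 9183 and 7544 FPKM in Epi and 87.5 and 54.9 in ORS, with none at 0, and the fibroblast markers to 9.66 and 6.502 in Epi and 108 and 69.4 in ORS, also with none at 0. The inner root sheath markers summed to 57.3 and 74.6 in Epi, with Krt72 at 0, and 308 and 215 in ORS, and the pericyte and smooth muscle markers to 8.60 and 4.32 in Epi, with Rgs5 and Des at 0, and 135 and 174 in ORS. Their part in the keratin differences was not tested.

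Within the follicle, Mx lay below ORS for Krt15 and Krt19. The log2 change was -3.03 for Krt15 (SE 0.42, adjusted p = 0.000214). Krt19 was called lower (adjusted p = 0.00133), with 1.92 FPKM and a listed 0 in Mx against 13.6 and 14.6 in ORS. These were the 2 of 10 genes called, where 2.64% of all genes fell and 1.2% rose. Krt5 and Krt14 were lower in both Mx libraries than in either ORS library, with log2 changes of -1.52 (SE 0.46, adjusted p = 0.0746) and -1.62 (SE 0.52, adjusted p = 0.103), and were not called. For Krt17 the log2 change was -1.05 (95% interval -2.33 to 0.24), also not called. The Krt19 call was lost without Mx replicate 2 (adjusted p = 0.0654) or with a pseudocount of 0.1 (0.0810), which leaves 1 of 10 genes called. Of the 14 anchor genes, Col17a1, Dst and Itga6, all of the hemidesmosome, fell and Ppl, a desmosomal linker, rose. Of the 8 regulators, Ovol1 and Grhl3 rose, with log2 changes of 3.27 (SE 0.50, adjusted p = 0.000500) and 2.44 (SE 0.53, adjusted p = 0.00862). Of 8 inner root sheath markers 6 rose, from sums of 308 and 215 FPKM in ORS to 2077 and 2199 in Mx, with none at 0, and 3 of 6 pericyte and smooth muscle markers fell, from 135 and 174 to 19.0 and 12.8. Their part in the keratin differences was not tested.

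Against Epi, Mx had 5 of the 10 keratins lower and 0 higher, where 6.14% of all genes fell and 5.12% rose. Log2 changes were -5.14 for Krt14 (SE 0.52, adjusted p = 7.01e-07), -4.34 for Krt15 (SE 0.42, adjusted p = 3.20e-07), -4.36 for Krt16 (SE 0.51, adjusted p = 4.01e-06) and -3.875 for Krt5 (SE 0.46, adjusted p = 4.78e-06). Krt6b, counted among the 5, was called lower with both Mx libraries listed at 0, a call lost with a pseudocount of 5. Krt6b passed the filter only through the Epi libraries, so the filter allowed it no call but a lower one. Krt17 did not follow the keratins called lower, with a log2 change of 0.40 (95% interval -0.88 to 1.68) and overlapping libraries. Beside these calls, 4 of 6 suprabasal markers fell, and 7 of 8 inner root sheath, 4 of 7 fibroblast and 3 of 8 endothelial markers rose. From Epi to Mx the suprabasal sums went from 9183 and 7544 FPKM to 71.8 and 46.5, the inner root sheath sums from 57.3 and 74.6 to 2077 and 2199, the fibroblast sums from 9.66 and 6.502 to 494 and 422, and the endothelial sums from 0 and 0.217 to 11.7 and 14.4. In Epi, Krt72 and 6 of the 8 endothelial markers were at 0 in both libraries, and the part of these markers was not tested. Of 14 anchor genes 5 fell and 0 rose, with a median log2 change of -1.11, against 0.05 over all genes tested.

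TAC and Mx shared the dim K14-H2BGFP gate, and 1 of 10 keratins differed. Krt15 fell by 2.40 on the log2 scale in TAC (SE 0.42, adjusted p = 0.00463), where 0.233% of all genes fell and 1.04% rose. It lost its call without Mx replicate 1 (adjusted p = 0.0958), with a log2 change of -2.15. The log2 changes of Krt5 and Krt14 were -0.43 (95% interval -1.39 to 0.52) and -0.73 (95% interval -1.83 to 0.36), and that of Krt17 was -0.57 (95% interval -1.86 to 0.71). By limma, 0 of 14 anchor genes and 0 of 8 regulators were called. In the same comparison 5 of 7 fibroblast and 3 of 6 papilla markers rose. The 5 fibroblast log2 changes ran from 1.97 for Pdgfra to 3.93 for Lum, while Dcn (-0.56) and Fbn1 (1.17) were not called. The fibroblast sums overlapped, at 494 and 422 FPKM in Mx and 514 and 459 in TAC, and so do not show the rise of these single genes. The papilla sums were 32.3 and 10.4 in Mx and 51.9 and 57.7 in TAC. No gene of either list was at 0 in both libraries of a population. The 6 melanocyte markers, none of them called, summed to 28.3 and 26.0003 in Mx and 259 and 163 in TAC. The part of these markers in the Krt15 value was not tested.

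In the line with K14-RFP and Sox9-GFP, the Sox9-positive sheath cells differed from the Sox9-negative ones in 1 called keratin. Krt6a rose by 2.22 on the log2 scale in HF-SC (SE 0.58, adjusted p = 0.0325), where 2.66% of all genes rose and 1.73% fell. The call was lost without HF-SC replicate 1 (adjusted p = 0.151), HF-SC replicate 2 (0.0674) or HF-ORS replicate 1 (0.332), and also with a pseudocount of 0.1 (0.120), without the filter (0.0742), with quantile normalization (0.0575) and with the same mouse line alone (0.144). In 7 of the 10 genes the unadjusted p was under 0.05, a looser rule than that of the calls. The share of all genes under it was not computed, so this number cannot be judged against the rest. Krt17 was higher in both HF-SC libraries, with a log2 change of 2.05 (SE 0.61, adjusted p = 0.0622). So was Krt7 (adjusted p = 0.0639), at 1.89 and 3.14 FPKM against a listed 0 and 0.674. Krt16 was lower in both, with a log2 change of -1.71 (SE 0.51, adjusted p = 0.0606), and the log2 changes of Krt5, Krt14 and Krt15 lay between -0.96 and -1.31. Of 10 tested keratins outside the set, Krt1, Krt10 and Krt4 fell and Krt79, a keratin of the upper follicle, and Krt23 rose. Of 8 inner root sheath markers 3 rose and of 6 suprabasal markers 2 fell, and their part was not tested. By limma, 0 of 14 anchor genes and 0 of 8 regulators were called.

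In Krt17, Krt16 and Krt19, HF-ORS lay nearer to Epi than to ORS, although both HF-ORS and ORS are labelled as sheath. The ratio of Krt17 to Krt14 was 0.0384 and 0.0303 in HF-ORS, 0.0281 and 0.0248 in Epi and 0.933 and 0.735 in ORS. Krt16 read 121 and 104 FPKM in HF-ORS and 1.35 and 0.906 in ORS, and Krt19 read 0 and 0.299 in HF-ORS and 13.6 and 14.6 in ORS. Krt1 and Krt10, the keratins of suprabasal epidermis, stood at 1481 and 1024 and at 1384 and 767 FPKM in HF-ORS, against at most 7.96 in ORS. The 6 suprabasal markers measured summed to 4332 and 4115 FPKM in HF-ORS and 1161 and 936 in HF-SC, with none at 0. Mouse line, reporter and gate differ between these sorts, so what the populations are cannot be told apart from how they were sorted, and no test was made across the lines.

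**Figure D4:**
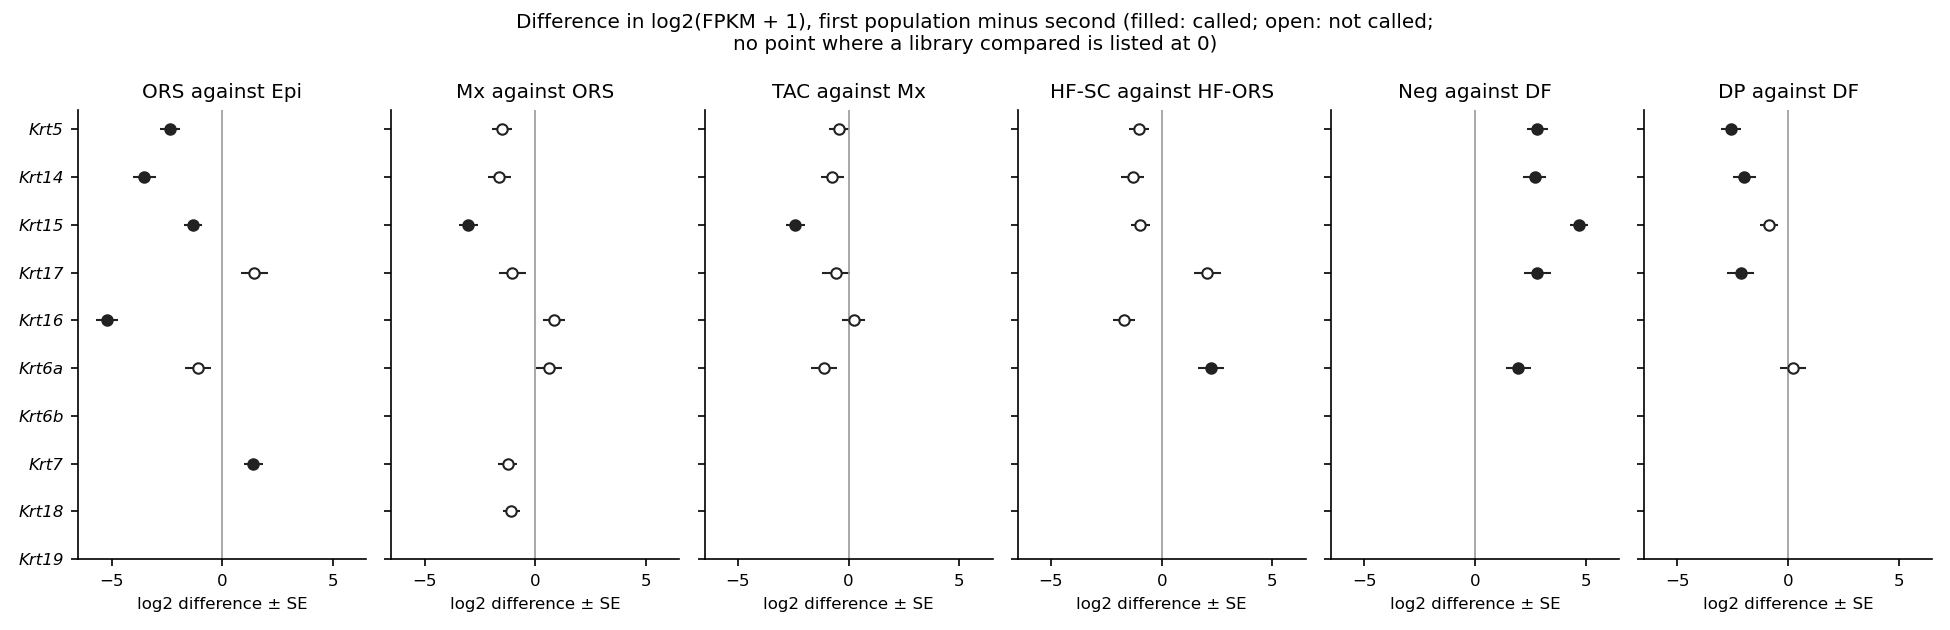
Difference in log2(FPKM + 1) for each keratin in 6 comparisons, first population minus second, with the standard error. Filled points were called and open points were not, and there is no point where a library compared was listed at 0. Krt15 is the only keratin called in TAC against Mx, and Krt5, Krt14, Krt15, Krt17 and Krt6a lie to the right in Neg against DF.

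Against the mean of Mc, DF and DP, the mean of Epi, ORS, Mx and TAC had 7 of the 10 keratins higher and 0 lower, where 10.1% of all genes were higher and 12.8% lower. The gates of Epi, ORS, Mx and TAC used the K14-H2BGFP reporter, and the labels name it in no gate of Mc, DF and DP. The higher Krt14, and that of keratins made in the same cells, is thus in part what the gate selected. Log2 changes were 5.88 for Krt5 (SE 0.25, adjusted p = 8.63e-13), 5.52 for Krt14 (SE 0.28, adjusted p = 7.18e-12), 5.50 for Krt15 (SE 0.22, adjusted p = 6.90e-13) and 4.48 for Krt17 (SE 0.33, adjusted p = 1.35e-09). Krt6a was higher by 1.76 (SE 0.32, adjusted p = 0.000119). Krt16 (adjusted p = 3.27e-07) and Krt19 (adjusted p = 0.00487) were also called higher, with Krt16 listed at 0 in Mc replicate 2, DF replicate 2 and both DP libraries, and Krt19 in these libraries and in Epi replicate 2 and Mx replicate 2. Krt6b, Krt7 and Krt18 were not called. The libraries of the compared groups did not overlap for Krt5, Krt14, Krt15, Krt17 and Krt6a, and the share of all genes without overlap was not computed. The Krt19 call was lost without Epi replicate 1, Mx replicate 1 or DF replicate 2, and those of Krt19 and Krt6a with a pseudocount of 5, in each case because the log2 change was under 1. All 12 non-keratin keratinocyte markers (Cdh1, Epcam, Perp, Sfn, Trp63, Dsp, Pkp1, Lamb3, Col17a1, Itgb4, Lgals7 and Esrp1) were higher too, with a median log2 change of 4.23, against 0.03 over all genes tested. Of the 14 anchor genes 12 were higher and 1, Dst, lower.

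Keratin RNA in the sorts without a keratinocyte gate was expressed as a percentage of the ORS mean, taking the median over Krt5, Krt14, Krt15 and Krt17 in each library. Neg held 43.0% and 28.0%. DF held 9.65% and 2.43%, and G-DP 3.06% and 7.28%. AA/ZZ-DP stood at 3.04% and 4.08%, G/AA-DP at 2.98% and 3.72% and ZZ-DP at 2.92% and 3.55%. DP and Mc were lowest, with 0.498% and 1.47% in DP and 1.003% and 0.616% in Mc. The ranges of DF and the papilla subtypes overlapped, and so did those of DP and Mc. The figures depend on the reference, since ORS, Epi and Mx differ in these genes: the mean of the 2 Neg libraries was 35.5% of ORS, 8.82% of Epi and 105.0% of Mx. The 12 non-keratin markers gave higher percentages of ORS, with medians of 79.2% and 51.9% in Neg, 34.8% and 11.4% in DF, 2.53% and 3.83% in DP, 2.74% and 1.87% in Mc and 4.39% to 14.5% in the papilla subtypes.

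**Figure D5:**
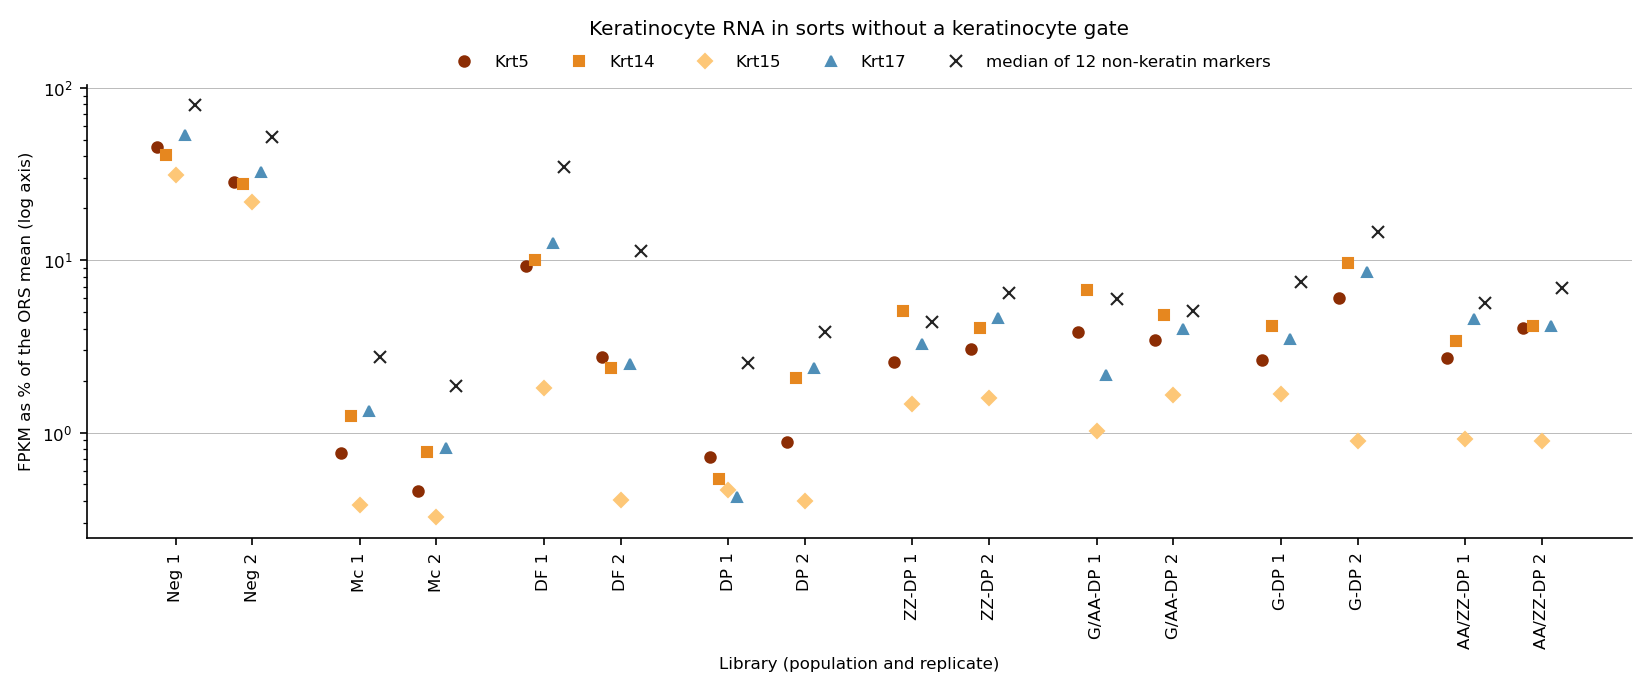
Krt5, Krt14, Krt15 and Krt17 in the 16 libraries sorted without a keratinocyte gate, as a percentage of their mean FPKM in ORS (log axis), with the median of 12 non-keratin keratinocyte markers (crosses). Neg is highest, with keratins between 21.7% and 53.1%. Krt15 is the lowest of the 4 keratins in 15 of the 16 libraries, against a reference that holds more Krt15 than Krt14.

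In Neg, labelled as negative cells, Krt5, at 1093 and 684.0 FPKM, overlapped Mx, and the ratio of Krt15 to Krt14, 1.37 and 1.39, lay nearer to ORS (1.64 and 1.91) than to Mx (0.685 and 0.648). Krt1 was low in Neg, at 0.542 and 0.183 FPKM against 3434 and 2643 in Epi, whereas the inner root sheath keratins Krt71 and Krt25 read 186 and 140.1 and 314 and 223 FPKM. Against DF, 6 of the 10 keratins rose in Neg and 0 fell, where 3.39% of all genes rose and 5.22% fell. Krt15 rose by 4.70 on the log2 scale (SE 0.42, adjusted p = 2.75e-07), Krt5 by 2.82 (SE 0.46, adjusted p = 0.000354), Krt17 by 2.82 (SE 0.61, adjusted p = 0.00506), Krt14 by 2.70 (SE 0.52, adjusted p = 0.00183) and Krt6a by 1.97 (SE 0.58, adjusted p = 0.0382). Krt7 was called higher with both DF libraries listed at 0. Of these 6 calls, 2 remained without DF replicate 2 (Krt5 and Krt15) and 3 without Neg replicate 1 (Krt5, Krt14 and Krt15). Krt6a lost its call without any 1 of the 4 libraries (adjusted p of 0.0624 to 0.264), and Krt7 without Neg replicate 1, DF replicate 1 or DF replicate 2 (0.0845 to 0.349). Both were also lost without the filter (0.0771 and 0.0515) and with a pseudocount of 5, and Krt7 with quantile normalization (0.0619) and with the same mouse line alone (0.0553).

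Most of the non-keratin keratinocyte markers were also higher in Neg than in DF, though not all were called. Of the 12 non-keratin keratinocyte markers 9 rose and 0 fell against DF (median log2 change 1.56, against 0.00 over all genes tested), as did 7 of 14 anchor genes and 6 of 8 inner root sheath markers. By limma, 0 of the 8 regulators were called. All 8 endothelial markers and 4 of 6 immune markers rose, and 6 of 7 fibroblast markers fell. Fibroblast markers summed to 530.1 and 467 FPKM in Neg and 2485 and 5813 in DF, and melanocyte markers to 617.5 and 827 in Neg. Endothelial markers summed to 108 and 179.9 in Neg and 9.23 and 7.26 in DF, where Cldn5 was at 0. Their part in the keratin differences was not tested.

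In DF the 2 libraries differed by more than 3-fold in each of the 4 major keratins. Replicate 1 had 223 FPKM of Krt5, 46.3 of Krt14, 14.9 of Krt15 and 48.6 of Krt17, and replicate 2 had 65.6, 11.02, 3.32 and 9.63. Krt71 and Krt25 differed alike, at 65.8 and 15.0 and at 144 and 35.0 FPKM, and so did the summed non-keratin keratinocyte markers, at 834 and 244. The ratio of Krt15 to Krt14 was 0.321 and 0.301 in DF, between those of Mx and TAC and near that of Epi replicate 1 (0.314, with 0.471 in Epi replicate 2). The ratio of Krt17 to Krt14 in DF was 1.05 and 0.873.

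Set against DF, DP had 3 of the 10 keratins lower and 0 higher, where 4.25% of all genes fell and 2.44% rose. Log2 changes were -2.59 for Krt5 (SE 0.46, adjusted p = 0.00113), -2.14 for Krt17 (SE 0.61, adjusted p = 0.0384) and -1.98 for Krt14 (SE 0.52, adjusted p = 0.0238). Mc also had 3 lower and 0 higher, where 11.5% of all genes fell and 6.67% rose. There the log2 changes were -3.002 for Krt5 (SE 0.46, adjusted p = 6.59e-05), -2.19 for Krt17 (SE 0.61, adjusted p = 0.0143) and -2.101 for Krt14 (SE 0.52, adjusted p = 0.00614). The calls of Krt14 and Krt17 rested on single libraries. In DP they were lost without DF replicate 1 (adjusted p = 0.439 and 0.534) or DP replicate 1 (0.380 and 0.498), and in Mc without DF replicate 1 (0.181 and 0.303) or Mc replicate 2 (0.0724 and 0.115). Without the filter on low values the calls of Krt14 (0.0704) and Krt17 (0.107) in DP and of Krt17 in Mc (0.0506) were lost, and that of Krt17 in DP also with a pseudocount of 5 (0.0696) and with the same mouse line alone (0.0613). The Krt5 call remained in each of these fits. Of the 12 non-keratin markers 9 fell in DP, and 10 fell in Mc with Cdh1 higher. Cdh1, the epithelial cadherin that melanocytes also carry, read 122 and 83.4 FPKM in Mc, 99.8% and 68.1% of the ORS mean, while Krt5 stood at 0.764% and 0.459% there. Beside the keratins, 6 of 6 melanocyte, 5 of 6 Schwann cell and 4 of 6 pericyte and smooth muscle markers fell in DP against DF, with melanocyte sums of 1298 and 1252 FPKM in DF and 16.5 and 23.5 in DP. In Mc against DF, 7 of 7 fibroblast, 6 of 6 pericyte and smooth muscle, 6 of 6 papilla and 5 of 8 inner root sheath markers fell. Their sums in Mc were 61.9 and 42.0098, 8.03 and 4.64, 6.28 and 1.45, and 44.9 and 54.3 FPKM, against 2485 and 5813, 614 and 604, 365 and 503, and 382 and 86.5 in DF. The part of these markers in the keratin differences was not tested.

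Among papilla subtypes no keratin was called. Between G/AA-DP and ZZ-DP, limma called 0 of the 10, and 0 had an unadjusted p under 0.05, where 0 of all genes tested rose and 0.00664% fell. Sox2, the gene behind this gate, did not separate these sorts either, with a log2 change of -0.07 (SE 0.64). Whether the libraries divide the follicle types as labelled is thus uncertain, and the lack of calls is no measure of likeness between follicle types. Between AA/ZZ-DP and G-DP the counts were again 0 and 0, where 0.093% of all genes rose and 0.412% fell. The intervals remain wide: for Krt5 the log2 change was 0.36 (95% interval -0.60 to 1.32) in G/AA-DP against ZZ-DP and -0.27 (95% interval -1.23 to 0.69) in AA/ZZ-DP against G-DP. All 8 subtype libraries had more Krt5 (61.7 to 145 FPKM) than the 2 DP libraries (17.5 and 21.3). The inner root sheath keratin Krt71 had another pattern, with 39.7 to 72.2 FPKM in the Crabp1-GFP line, 8.21 to 13.7 in the Sox2-GFP line and 13.9 and 33.1 in DP. Mouse line and sort colours differ together between these sets, so their parts cannot be told apart. Both GFP lines covered guard, awl/auchene and zig-zag follicles, divided in different ways.

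Across the 16 libraries without a keratinocyte gate, Krt5 correlated with the other 3 major keratins, and to very different degrees with other follicle genes. On the log2 scale Krt5 correlated with Krt14 at r = 0.971, with Krt17 at 0.956, with Krt15 at 0.900 and with Col17a1 at 0.994. Without the 2 Neg libraries (n = 14) these were 0.937, 0.892, 0.764 and 0.985. The correlation with Krt6a was 0.639 and 0.270, and that with Cdh1 was 0.319 and -0.170. For the remaining 10 non-keratin markers r lay between 0.766 (Sfn) and 0.955 (Dsp) over 16 libraries, and between 0.490 (Sfn) and 0.901 (Dsp) without Neg. The inner root sheath keratins Krt71 and Krt25 stood at 0.754 and 0.773, and at 0.484 and 0.469 without Neg. These are descriptions over libraries of 8 populations and 3 mouse lines, and libraries of a line share its genotype. No library of this set had a ratio of Krt17 to Krt14 as low as Epi or HF-ORS: the lowest was 0.268, in G/AA-DP replicate 1, and the median 0.876. Krt15 was the least represented of the 4 keratins against ORS, at 1.82% and 0.405% in DF and 0.891% to 1.67% in the papilla subtypes, with DP replicate 1 as the exception, where Krt17 was lower (0.425% against 0.462%). That place depends on the reference. The ratio of Krt15 to Krt14 was 1.64 and 1.91 in ORS and at most 1.53 in this set, so against ORS Krt15 had to fall below Krt14.

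Genes with the most similar pattern were sought among 11179 genes by the Pearson correlation of log2 means over the 14 populations, which share mouse lines and gates. The closest to Krt5 were Plek2 (r = 0.989), Serpinb5 and Ckmt1, and the closest to Krt14 were Col17a1 (r = 0.991), Sh3rf2 and Fam83b. Krt15 was followed by Fgfbp1 (r = 0.984), Cwh43 and Fam83b, and Krt17 by Tenm2 (r = 0.985), Rassf9 and Epcam, the epithelial adhesion molecule. Krt16 went with Klk9 (r = 0.987), Extl1 and Sox15, and Krt6a with Abca12 (r = 0.944), Tgm5 and Tmem79. The rare keratins, whose patterns rest on few values above 0, were nearest to Aadacl2, Chit1 and Serpinb12 for Krt6b (r = 0.972), Il31ra, Sh3rf1 and Sema3e for Krt7 (r = 0.932), Slc15a2, Il31ra and Myh9 for Krt18 (r = 0.949) and Myh8, Piwil2 and Fgf5 for Krt19 (r = 0.943). Among the 10 themselves, r ran from 0.988 for Krt5 with Krt14 to -0.149 for Krt6b with Krt18.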

How the data were processed

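Total RNA of at least RIN 8.8 was taken forward, and 6 ng was reverse transcribed and amplified before libraries were made from 100.0 ng of cDNA, per the labels' protocols. Amplification from so little RNA limits the precision of low genes. The authors deposited 1 table of FPKM values for the 28 libraries. TopHat2 2.0.3, Bowtie2, Cufflinks 2.1.1 and mm10 are named in the submitters' processing notes, and the sources used here give no other step. Upper quartiles of 10.3 to 11.1 FPKM may reflect scaling between libraries. Whole reads could not be recovered (26.6% of 3276 triples of libraries closed within 0.06), so no counting interval is given.

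Of 23235 rows, 220 duplicates were dropped. The 15052 genes that reached 1 FPKM in 2 or more libraries were fitted on log2(FPKM + 1), with a pseudocount of 1, with limma 3.58.1 in R 4.3.3, with 1 mean per population (14 residual and 5.7 prior degrees of freedom), after the fit had been tested on simulated data. Named genes were the 10 members, the 3 genes most correlated with each (at least 5 FPKM in a population) and list genes beside a keratin result. Members and lists were chosen with earlier results of these data known. Sequences came from RefSeq (GRCm38.p6) and GENCODE (GRCm38), read with Biopython 1.88. Tables were made with Python 3.11.15 and pandas 2.3.3. Alternatives were pseudocounts, filters, quantile normalization, a replicate block, the same mouse line alone, other references and leaving out each library.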

Additional observations from a re-analysis of the deposited data

How the results depend on the processing

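Of 36 calls of single keratins, 18 held under every alternative run and 18 were lost under at least 1, and none changed direction. The number of keratins called in HF-SC against HF-ORS went from 1 to 0 with a pseudocount of 0.1, without the filter or with quantile normalization, to 3 with a pseudocount of 5, and to 2 with only the libraries of the same mouse line, where Krt6a was not among them (adjusted p = 0.144). In ORS against Epi it went from 8 to 5 with a pseudocount of 5 or a filter at 5 FPKM (7 of the 10 genes tested). In Mx against ORS it went from 2 to 1 with a pseudocount of 0.1, and in DP against DF from 3 to 1 without the filter. Leaving out 1 library at a time gave 4 to 6 calls in ORS against Epi, 1 to 2 in Mx against ORS, 0 to 1 in TAC against Mx and in HF-SC against HF-ORS, 2 to 5 in Neg against DF and 1 to 4 in DP against DF and in Mc against DF. The lone library left in a population was then assumed to vary like the others.

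Replicate numbers are shared between populations without a stated meaning. Deviations of same-numbered libraries correlated at 0.0574 to 0.275 in the K14-H2BGFP line (27 of 28 pairs over 0.1). The values were 0.0710 in the line with K14-RFP, 0.285 in that with Sox2-GFP and 0.283 in that with Crabp1-GFP. Same-numbered libraries thus tended to deviate together. What they share is not stated, and the main fit took no account of it. With the replicate number as a block all 36 calls held and HF-SC against HF-ORS had 2.

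The median of the 4 keratins as a percentage changed with the reference, from means of 35.5 in Neg, 0.810 in Mc, 6.04 in DF, 0.986 in DP, 3.23 in ZZ-DP, 3.35 in G/AA-DP, 5.17 in G-DP and 3.56 in AA/ZZ-DP of the ORS level. Of Epi these were, in the same order, 8.82, 0.129, 0.836, 0.167, 0.572, 0.653, 0.785 and 0.500. Of Mx they were 105.0, 2.46, 16.1, 2.96, 10.2, 10.6, 13.7 and 9.24. Of HF-ORS they were 9.58, 0.151, 1.21, 0.217, 0.684, 0.868, 1.05 and 0.698. With the 12 non-keratin markers against ORS they were 65.5, 2.30, 23.1, 3.18, 5.40, 5.53, 10.97 and 6.24. The unknown depth limits Krt6b, Krt7, Krt18 and Krt19 most, which were listed at 0 in 14 to 24 libraries.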
